A study of Mus musculus with 18 samples.

Results

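Hepatokines are proteins that the liver releases into blood and that act on other tissues. The 9 transcripts described here encode such factors or the proteins that bind them: the stress-responsive hormones Fgf21 and Gdf15, the activin chains Inhbe and Inhba, the activin inhibitor follistatin (Fst), the fetuins Fetub and Ahsg, the selenium carrier Selenop and the retinol carrier Rbp4. They were chosen by name, and they make up 9 of the 35441 genes in the count table. All 9 passed the read minimum (a sum above 100 reads over all livers) and were among the 14533 genes tested.

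RNA was sequenced from the livers of 18 male mice on a C57BL/6N background, in 6 groups of 3 mice. Lipa encodes lysosomal acid lipase, the enzyme that hydrolyses cholesteryl esters and triglycerides in lysosomes. The knockout (KO) mice were Lipa-/-, with an exon of Lipa removed by CMV-Cre, and the wild-type (WT) mice were their littermates. The treated knockout (KOT) mice were Lipa-/- mice given rAAV8.hAAT.LIPA, a vector that carries the human LIPA cDNA under the hepatocyte-specific human α1-antitrypsin promoter. It was injected into the tail vein at 10 to 12 weeks of age. The study tried several doses and took its middle dose to the longer time points, and the sample labels do not give a dose. Livers were taken 12 or 34 weeks after injection (labelled 3 and 8 months). Per the study's methods, a single untreated KO mouse was still alive at 34 weeks, and the others had been killed on reaching an endpoint. The 3 KO livers labelled 8 months thus cannot all come from mice killed at 34 weeks, and the labels do not say which do. KO at 34 weeks means this labelled group in what follows. The study codes in the labels also differ between the times, so time and code cannot be told apart. KO mouse 5 of 12 weeks carries a code of its own, unlike the other livers of that time. How long the mice had fasted before the livers were taken was not given in the sources used here.

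Total reads per liver ran from 17527824 to 25833059. Human LIPA was at 522.9 to 2746 CPM (read counts set to a common library size, here with TMM scaling factors) in the KOT livers and at most 0.906 CPM elsewhere, and murine Lipa was at 202 to 323 CPM in WT and at 16.7 to 37.0 CPM in KO and KOT livers. The 8 hepatocyte markers were present in every group. Their summed level was 66583 to 90796 CPM in the WT livers, 42082 to 58638 CPM in KO at 12 weeks and 24049 to 50092 CPM in KO at 34 weeks, and 56898 to 112414 CPM in KOT. Several sums for other cells were higher in KO. The macrophage sum was 98.9 to 391.7 CPM in WT and 2163 to 6036 CPM in KO (of 8 markers, 5 were called higher and 2 lower at 12 weeks, and 5 higher and 3 lower at 34 weeks), the stellate cell and fibroblast sum 96.2 to 206 CPM in WT and 763 to 2512 CPM in KO, and the cholangiocyte sum 38.9 to 65.5 CPM in WT and 469.9 to 2242 CPM in KO. For neutrophil markers the sum was 0.628 to 5.31 CPM in WT, with 4 of the 6 markers at 0 in WT at 12 weeks, and 102 to 1556 CPM in KO. The lymphocyte sum stayed under 14 CPM in every liver. At 12 weeks it was 1.52 to 3.73 CPM in WT, 7.59 to 10.4 CPM in KO and 8.45 to 12.0 CPM in KOT. At 34 weeks it was 2.76 to 6.98 CPM in WT, 6.73 to 13.9 CPM in KO and 6.91 to 13.5 CPM in KOT. The endothelial sum, like that of hepatocytes, was lower in KO than in WT. It was 65.4 to 73.7 CPM against 113 to 158 CPM at 12 weeks and 81.1 to 130 CPM against 145 to 157 CPM at 34 weeks. Of its 6 markers, 1 was called higher and 2 lower at each time. In KOT at 12 weeks the macrophage sum (818 to 2552 CPM) and the stellate sum (325 to 901 CPM) were above WT, and at 34 weeks they were 251 to 667 CPM and 218 to 245 CPM. The neutrophil sum in KOT was 5.52 to 65.9 CPM at 12 weeks and 1.58 to 759.5 CPM at 34 weeks. The part of these shifts in the results that follow was not tested. In bulk liver, fewer hepatocytes and less RNA per hepatocyte cannot be told apart.

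FGF21 and GDF15 are hormones that hepatocytes make under nutritional, mitochondrial and endoplasmic reticulum stress. Both are known targets of the integrated stress response, in which ATF4 and its partners bind amino-acid response elements. Activins are dimers of inhibin β chains, signal through type II receptors to SMAD2 and SMAD3, and are held inactive by follistatin. Fetuins are liver glycoproteins of the cystatin superfamily. Selenoprotein P carries selenium, and retinol-binding protein 4 carries retinol in a complex with transthyretin, from hepatocytes to other tissues.

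Per transcript length, the 9 transcripts spanned a wide range in healthy liver. In WT at 12 weeks the mean levels in TPM (read counts corrected for transcript length and library size) were 4267 ± 423 for Rbp4, 3951 ± 401 for Ahsg, 2651 ± 349 for Selenop and 271 ± 52.4 for Fetub (SD, n = 3). The other 5 were far lower, at 7.53 TPM for Gdf15, 6.46 TPM for Inhbe, 3.96 TPM for Fgf21, 3.21 TPM for Inhba and 1.85 TPM for Fst. The transport proteins and Ahsg were thus among the most abundant liver mRNAs, and the hormones and activin genes rested on far fewer reads (6 to 232 reads per liver for Fgf21).

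**Figure D1:**
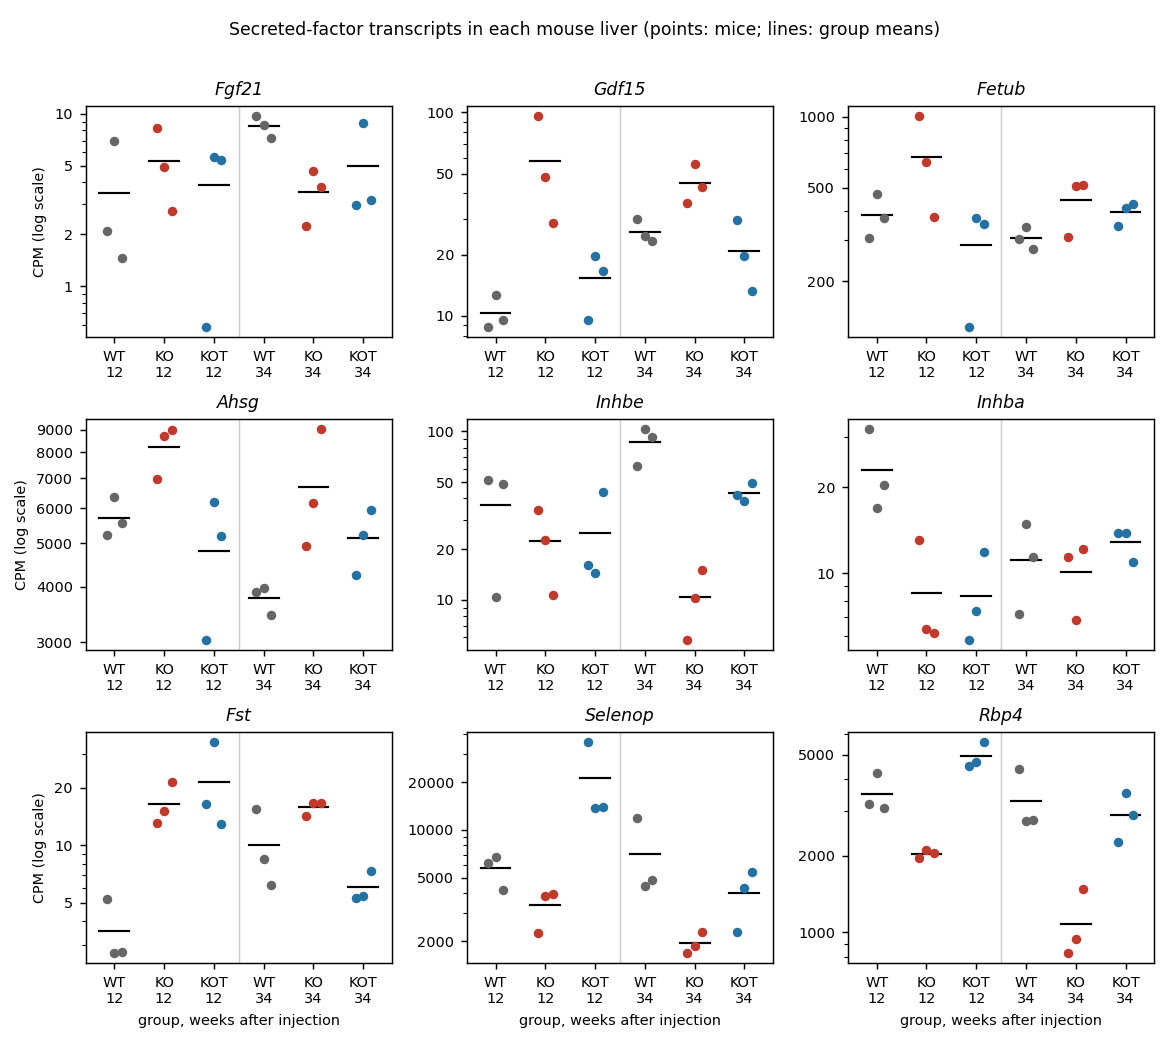
Level of each of the 9 transcripts in CPM (log axis) in every liver, by group and weeks after injection. Points are single mice and lines are the means of 3 mice. Gdf15 in KO livers at 12 weeks (28.6 to 95.8 CPM) lies above all WT livers of that time, and Rbp4 in KO livers lies below all WT livers at both times.

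Counted over the members, 3 of 9 were called in KO against WT at 12 weeks, where called means an absolute log2 fold change over 1 with an adjusted p under 0.05 by edgeR's quasi-likelihood test. Among all genes tested, 29.3% were called in that comparison (20.2% higher and 9.06% lower). At 34 weeks 3 of 9 were also called, all lower in KO, beside 36.3% of all genes (20.5% higher and 15.7% lower). Both counts were near the background. The members called were not the same at the 2 times: Gdf15 and Fst higher and Inhba lower at 12 weeks, and Inhbe, Selenop and Rbp4 lower at 34 weeks. The test of that change between the times called no member (0 of 9, against 0.0619% of all genes). In it 4 of 9 had an unadjusted edgeR p under 0.05, beside 1378 of the 14533 genes tested. With 0 called, a difference between the times was not shown for any member.

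**Figure D2:**
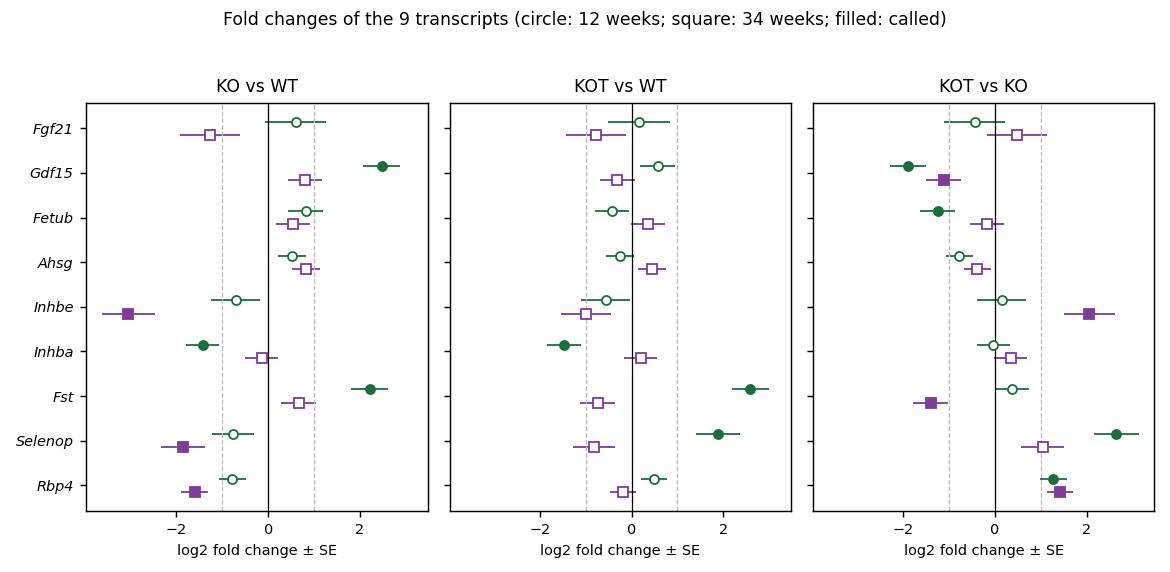
Log2 fold change ± SE of the 9 transcripts (edgeR, 3 mice a group) in KO against WT, KOT against WT and KOT against KO, at 12 weeks (circles) and 34 weeks (squares). Filled symbols were called, dashed lines mark the fold threshold, and in KOT against WT no square is filled while Inhba, Fst and Selenop are filled at 12 weeks.

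Gdf15 was the member with the clearest rise in KO liver. GDF15 is a circulating stress signal that lowers food intake through a receptor in the hindbrain. Its level at 12 weeks was 8.84, 12.6 and 9.58 CPM in the WT mice, 95.8, 47.9 and 28.6 CPM in the KO mice and 9.52, 19.7 and 16.6 CPM in the KOT mice. All KO livers stood above all others at that time, and the KOT range overlapped that of WT. The log2 fold change in KO against WT was 2.47 (SE 0.40), a 5.54-fold higher level (edgeR adjusted p = 0.000125, log2 change 1.89 without KO mouse 5, the liver with a code of its own), and in KOT against KO it was -1.90 (SE 0.39, edgeR adjusted p = 0.000812, log2 change -1.32 without KO mouse 5).

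At 34 weeks Gdf15 was at 29.8, 24.7 and 23.2 CPM in WT, 35.9, 55.9 and 43.3 CPM in KO and 29.5, 19.8 and 13.3 CPM in KOT. The KO livers again stood above the rest, but the WT livers were also higher than at 12 weeks without overlap. The fold change in KO against WT was 0.80 on the log2 scale (SE 0.38, edgeR adjusted p = 0.0933) and did not pass, though it was called with total counts (1.43), limma on TPM (1.43) and scaling to hepatocyte markers (2.14). In KOT against KO Gdf15 fell by 1.11 on the log2 scale (SE 0.38, edgeR adjusted p = 0.0271). That last call was lost without KO mouse 5 (log2 change -0.93, edgeR adjusted p = 0.0995), without KOT mouse 11 (-1.07, 0.0787) and without KOT mouse 12 (-0.89, 0.0999).

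Fgf21 did not follow Gdf15. FGF21 is a fasting and stress hormone that acts through FGF receptors with the co-receptor β-Klotho (Klb). At 12 weeks it was at 2.09, 6.94 and 1.47 CPM in WT, 8.23, 4.93 and 2.75 CPM in KO and 0.583, 5.60 and 5.37 CPM in KOT, with wide overlap between the groups. Its log2 fold change in KO against WT was 0.60 (SE 0.66, edgeR adjusted p = 0.507), and ran from 0.13 without KO mouse 5 to 1.58 without WT mouse 2. At 34 weeks the order was turned, with 9.67, 8.63 and 7.24 CPM in WT, 2.24, 4.64 and 3.75 CPM in KO and 2.97, 8.85 and 3.15 CPM in KOT. All KO livers were then below all WT livers, with a log2 difference of -1.27 (SE 0.66, edgeR adjusted p = 0.126) that did not pass with the spread estimated over 6 groups and passed in a fit of those 6 livers alone (-1.20, edgeR adjusted p = 0.0116). In WT the 3 livers at 34 weeks were above the 3 at 12 weeks.

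Within a liver, the reads of Gdf15 per read of Fgf21 do not depend on library scaling. This ratio was 9.72 to 11.6 in KO and 1.82 to 6.54 in WT at 12 weeks, and 11.5 to 16.1 in KO and 2.86 to 3.21 in WT at 34 weeks. The KO and WT ranges of 3 livers each were separate at both times. No test of the ratio was run. In KOT the 12-week ratios (3.09 to 16.3) overlapped those of both other groups, and the 34-week ratios (2.23 to 9.93) overlapped those of WT alone.

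The start regions of the stress-responsive genes are shown because the pair is usually described under shared stress control. Each sequence is the 250 bases before the canonical GENCODE start on GRCm39, read 5′ to 3′ on the gene's strand, and capitals mark a match, on either strand, to TGATGNAA (the core of the C/EBP-ATF response element), CACGTG (an E-box), GTTAAT (a half-site of HNF1) or TATAAA (the TATA box).
Fgf21, chr7:45264915-45265164, minus strand: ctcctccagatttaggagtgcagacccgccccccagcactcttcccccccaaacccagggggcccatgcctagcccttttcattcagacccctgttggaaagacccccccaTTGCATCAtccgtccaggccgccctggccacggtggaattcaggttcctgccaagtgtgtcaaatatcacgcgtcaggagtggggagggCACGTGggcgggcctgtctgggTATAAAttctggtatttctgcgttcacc
Gdf15, chr8:71085112-71085361, minus strand: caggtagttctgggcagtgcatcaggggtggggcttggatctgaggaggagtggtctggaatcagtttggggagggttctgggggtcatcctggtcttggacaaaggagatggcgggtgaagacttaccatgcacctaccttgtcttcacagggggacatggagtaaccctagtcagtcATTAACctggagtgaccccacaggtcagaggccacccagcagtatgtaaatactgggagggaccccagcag
Inhbe, chr10:127190281-127190530, minus strand: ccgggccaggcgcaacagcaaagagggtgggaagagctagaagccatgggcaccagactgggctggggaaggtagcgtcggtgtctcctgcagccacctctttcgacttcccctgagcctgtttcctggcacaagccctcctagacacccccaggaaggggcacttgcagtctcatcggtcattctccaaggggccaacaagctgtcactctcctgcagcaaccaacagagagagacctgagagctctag

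In the Fgf21 window the response element core began 139 bases before the start and lay on the reverse strand, the E-box lay at positions -50 to -45 and the TATA box at -28 to -23. The windows of Gdf15 and Inhbe held no TGATGNAA, which 3.39% of 21757 protein-coding start regions of this length hold, and of the 9 members Fgf21 alone had it. CACGTG, found in 6.26% of all such regions, was likewise present in Fgf21 alone among the members. GTTAAT stood in the Gdf15 window (6.28% of all regions) and TATAAA in Fgf21 and Rbp4 (11.9% of all regions). None of the motifs overlapped another in the 3 windows, and a match describes the letters only.

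The wider integrated stress response list moved unevenly in KO liver. Of its 18 genes, 7 were called higher and 1 lower at 12 weeks and 8 higher and 3 lower at 34 weeks. Among all genes tested, 20.2% were called higher and 9.06% lower at 12 weeks, and 20.5% and 15.7% at 34 weeks. The counts called lower were near these shares. The median log2 fold changes of the list were 1.02 and 0.67, beside 0.02 and -0.03 over all genes tested. The largest called changes were in the serine synthesis enzyme Phgdh (5.23 at 12 weeks), the cystine transporter Slc7a11 (4.304 at 12 weeks), the transcription factor Atf3 (4.61 at 34 weeks) and asparagine synthetase Asns (4.49 at 34 weeks). Phgdh and Slc7a11 had mean WT levels of 0.119 and 0.259 CPM at 12 weeks, and Asns 0.314 CPM at 34 weeks. As 3 reads make 0.0946 to 0.291 CPM in these livers, the fold sizes of Phgdh, Slc7a11 and Asns are imprecise. Atf4 mRNA itself was not called at either time (-0.85 and -0.50), and Cth, the cystathionine lyase, was lower at both (-1.63 and -2.61). The list thus holds genes that rose, as Gdf15 did at 12 weeks, beside genes that fell. In KOT against WT at 34 weeks only Asns of the list was called (4.10).

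**Figure D3:**
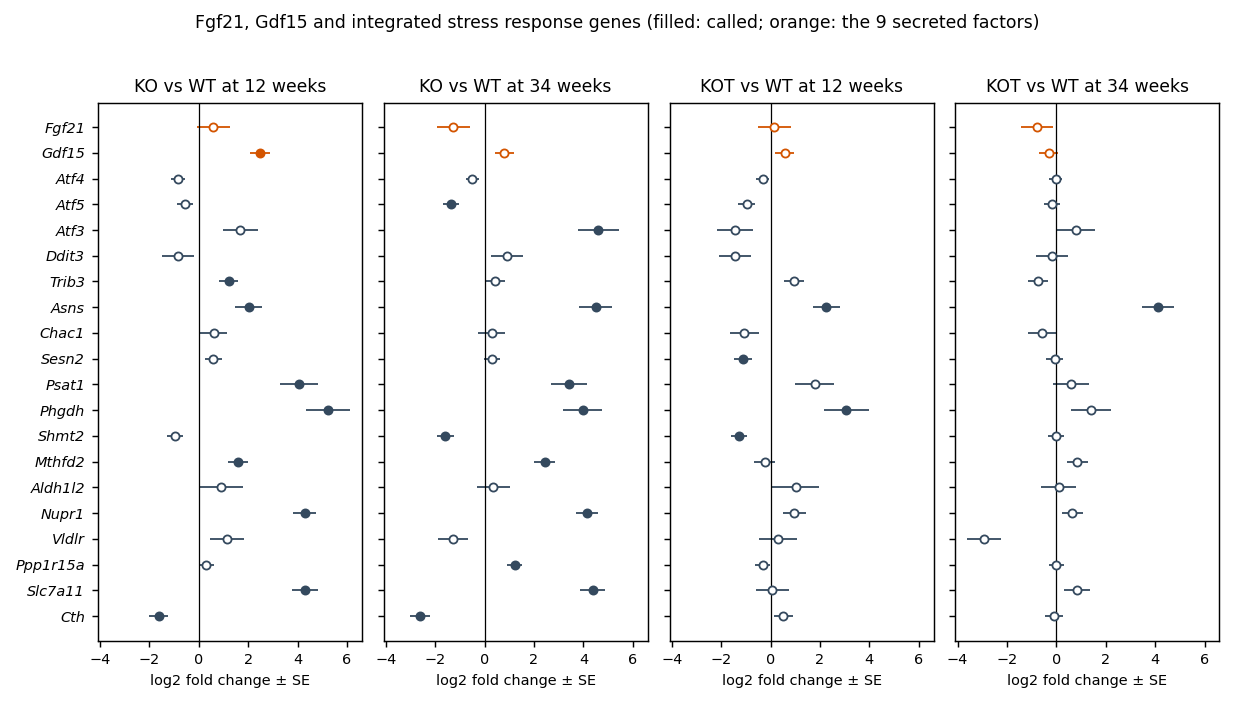
Log2 fold change ± SE of Fgf21, Gdf15 (orange) and 18 integrated stress response genes in 4 comparisons (edgeR, 3 mice a group, filled points called). In KO against WT Phgdh, Psat1, Slc7a11 and Nupr1 lie above 3 at both times, while Fgf21 is not called in any panel.

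Of 7 known regulators of Fgf21, 3 were called lower in KO at 12 weeks and 4 at 34 weeks, and 0 higher at either time, beside 9.06% and 15.7% of all genes called lower. Of the 8 hepatocyte markers, 3 and 6 were called lower, with medians of -0.98 and -1.23, and the part of this was not tested. The regulators called lower included the fasting receptor Ppara (-1.42 and -1.98), the carbohydrate-responsive factor Mlxipl (-1.83 and -2.35) and Creb3l3 (-1.55 and -1.89). All of these were called higher in KOT against KO at both times. Klb was at -0.98 at 12 weeks (not called) and fell at 34 weeks (-1.57), the hepatocyte FGF receptor Fgfr4 was not called in KO (-0.15 and -0.18), Fgfr3 was lower at 12 weeks (-1.0018), and Fgfr1 rose at both times (1.55 and 3.90). The GDF15 receptor Gfral, its partner Ret and the FGF21-cleaving protease Fap did not reach the read minimum.

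Inhbe showed the largest fall of the 9 members in KO liver. Inhbe encodes the β chain of activin E, which hepatocytes release and which restrains fat breakdown in adipose tissue. At 34 weeks its level was 62.6, 103 and 92.5 CPM in WT, 5.80, 10.3 and 15.1 CPM in KO and 42.1, 38.6 and 49.1 CPM in KOT. The 3 groups did not overlap, with KOT between WT and KO. The log2 fold change in KO against WT was -3.05 (SE 0.58), an 8.26-fold lower level (edgeR adjusted p = 0.000397), and in KOT against KO it was 2.06 (SE 0.56, edgeR adjusted p = 0.0073). The latter call was lost with scaling to hepatocyte markers (1.01, edgeR adjusted p = 0.128). KOT against WT was not called, although all KOT livers were lower.

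At 12 weeks Inhbe was at 51.2, 10.5 and 48.8 CPM in WT, 34.0, 22.6 and 10.7 CPM in KO and 16.2, 14.4 and 43.9 CPM in KOT. These ranges overlapped, and WT mouse 2 alone was as low as the lowest KO liver. The log2 fold change in KO against WT was -0.71 (SE 0.54, edgeR adjusted p = 0.323). In WT the level at 34 weeks was above that at 12 weeks in every liver (log2 difference 1.22, SE 0.54, edgeR adjusted p = 0.591).

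Inhba, the activin A chain, was called in KO against WT at 12 weeks only. The change of that difference between the times was not called (1.29, edgeR adjusted p = 0.412). At 12 weeks it was at 31.9, 16.8 and 20.3 CPM in WT, 13.1, 6.37 and 6.14 CPM in KO and 5.83, 7.34 and 11.8 CPM in KOT. WT stood apart from both other groups, which overlapped each other. The log2 fold changes were -1.43 in KO (SE 0.36, edgeR adjusted p = 0.00505) and -1.46 in KOT (SE 0.37, edgeR adjusted p = 0.00905). The call in KO was lost with total counts (-0.96, edgeR adjusted p = 0.069), limma on TPM (-0.81, limma adjusted p = 0.121) and scaling to hepatocyte markers (-0.66, edgeR adjusted p = 0.247), and that in KOT was kept under every alternative. At 34 weeks all groups overlapped, at 7.20, 14.9 and 11.4 CPM in WT, 11.4, 6.84 and 12.1 CPM in KO and 13.8, 13.8 and 10.9 CPM in KOT. The log2 fold change in KO was then -0.14 (SE 0.36, edgeR adjusted p = 0.772).

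Follistatin ran opposite to Inhba. Fst was at 5.198, 2.73 and 2.77 CPM in WT at 12 weeks, 13.0, 15.03 and 21.5 CPM in KO and 16.4, 34.5 and 13.0 CPM in KOT. Both Lipa-/- groups were above every WT liver. The log2 fold changes were 2.21 in KO (SE 0.40, edgeR adjusted p = 0.00034) and 2.58 in KOT (SE 0.40, edgeR adjusted p = 0.00171). At 34 weeks the KOT livers had come down to 5.28, 5.41 and 7.35 CPM, below the KO livers at 14.3, 16.7 and 16.7 CPM, and WT was at 15.5, 8.47 and 6.19 CPM. Fst fell by 1.398 on the log2 scale in KOT against KO (SE 0.38, edgeR adjusted p = 0.00763). KO against WT did not pass (0.66, SE 0.38, edgeR adjusted p = 0.159), and passed without WT mouse 1 (1.11, edgeR adjusted p = 0.0299) and with total counts (1.35), limma on TPM (1.62) or hepatocyte markers (2.00).

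Set against each other within a liver, Fst and Inhba gave the widest shift of the pairs examined. There were 0.137 to 0.163 reads of Fst per read of Inhba in WT at 12 weeks, 0.994 to 3.50 in KO and 1.10 to 4.70 in KOT. At 34 weeks the ratio was 0.545 to 2.16 in WT, 1.26 to 2.44 in KO and 0.383 to 0.674 in KOT. The WT range at 12 weeks lay below all other groups, and at 34 weeks KOT lay below KO without overlap. Across the 18 livers Inhba and Fst had a Pearson's r of -0.77 (Spearman's rho -0.81) in log2 CPM, given as a description since the livers share groups and library scaling. The effective lengths that Salmon assigned to these genes differed up to 1.46-fold (Inhba) and 1.57-fold (Fst) between livers.

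The other activin genes showed which chains moved. Inhbc lies 607 bases from Inhbe on chromosome 10, both on the minus strand, and was -0.66 at 12 weeks (not called) and fell by 1.15 on the log2 scale at 34 weeks, less than Inhbe. Inhbb, the activin B chain, rose at both times (1.21 and 2.40) from a low level of 0.643 to 2.21 CPM in WT. Among the 5 binding proteins and decoys, Fst included, 3 were called higher in KO at each time and 0 lower. Fst was among the 3 at 12 weeks only. Of all genes tested, 20.2% were called higher and 9.06% lower at 12 weeks, and 20.5% and 15.7% at 34 weeks. The follistatin-like genes Fstl1 (3.61 and 4.32) and Fstl3 (2.54 and 3.03) were higher at both times. Fstl3 rested on few reads in WT, with means of 0.220 CPM at 12 weeks and 0.392 CPM at 34 weeks. Of 8 receptors and SMADs tested, only the type II receptor Acvr2a was called in KO (-1.20 and -1.10), and Acvr2b was not (-0.32 and 0.06). Inha and the activin E receptor Acvr1c did not reach the read minimum.

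**Figure D4:**
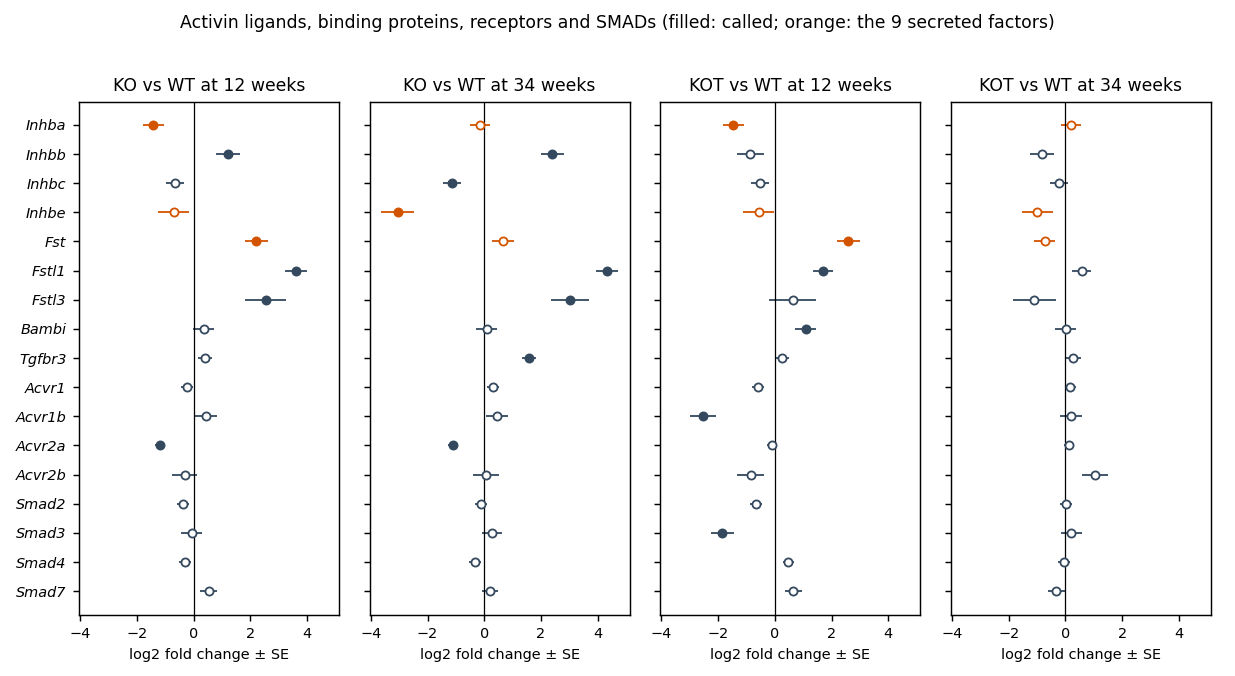
Log2 fold change ± SE of activin chains, binding proteins, receptors and SMADs in 4 comparisons (edgeR, 3 mice a group, filled points called, members in orange). Inhba lies left and Fst right of 0 in both Lipa-/- groups at 12 weeks, and no gene is called in KOT against WT at 34 weeks.

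Whether the fetuins were called in KO depended on scaling. Ahsg (fetuin-A, an inhibitor of mineral deposition and of insulin receptor signalling) and Fetub (fetuin-B, an inhibitor of the egg-coat protease ovastacin) are neighbours on mouse chromosome 16, 17925 bases apart on the same strand (Ahsg chr16:22710027-22718201, Fetub chr16:22736127-22758528, GRCm39). Ahsg was at 5224, 6350 and 5560 CPM in WT and 6962, 8699 and 8986 CPM in KO at 12 weeks, and at 3881, 3959 and 3449 CPM in WT and 4925, 6162 and 9009 CPM in KO at 34 weeks. Every KO liver was above every WT liver of its time. The log2 fold changes were 0.52 (SE 0.30, edgeR adjusted p = 0.183) and 0.83 (SE 0.30, edgeR adjusted p = 0.0323), so neither was called. Without KO mouse 4 the change at 34 weeks was 1.05 (edgeR adjusted p = 0.0168) and was called. In KOT Ahsg was at 3036, 6191 and 5184 CPM at 12 weeks and at 4254, 5229 and 5952 CPM at 34 weeks. All KOT livers at 12 weeks were below all KO livers, with a log2 change of -0.77 (SE 0.30, edgeR adjusted p = 0.0398) that was under the fold threshold and passed it with total counts (-1.61), limma on TPM (-1.98) and hepatocyte markers (-1.64).

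Fetub was at 307, 468 and 374 CPM in WT and 1005, 643 and 375 CPM in KO at 12 weeks, a log2 difference of 0.82 (SE 0.38, edgeR adjusted p = 0.0962). KO mouse 9 lay within the WT range, and without it the difference was called (1.11, edgeR adjusted p = 0.0315). At 34 weeks the KO livers, at 309, 509 and 515 CPM, overlapped the WT livers at 302, 342 and 275 CPM (0.54, SE 0.37, edgeR adjusted p = 0.255). At 34 weeks KOT was at 346, 409.8 and 425 CPM, above all WT livers. In KOT at 12 weeks Fetub was at 128, 372 and 352 CPM and fell against KO (-1.24, SE 0.38, edgeR adjusted p = 0.0112). This call was lost without KO mouse 5 (-0.84, edgeR adjusted p = 0.0794) and without KOT mouse 10 (-0.93, 0.0371).

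Because the hepatocyte markers were lower in KO, the members were also read against them. Per 1000 reads of the 8 hepatocyte markers in the same liver, Ahsg was at 66.4 to 72.1 in WT and 153 to 184 in KO at 12 weeks, and at 45.8 to 59.5 in WT and 179.8 to 256 in KO at 34 weeks. Fetub was at 4.24 to 5.16 in WT and 6.40 to 23.9 in KO at 12 weeks and at 3.56 to 5.13 in WT and 10.3 to 21.2 in KO at 34 weeks. On this scale both fetuins stood higher in KO with no overlap, and in edgeR scaled to these markers both were called at both times (Ahsg 1.27 and 2.04, Fetub 1.66 and 1.80, all relative to a median of all genes of 0.77 and 1.27). This scale was chosen after the data had been seen. Fetub gave 0.0418 to 0.144 reads per read of Ahsg in KO and 0.0588 to 0.0738 in WT at 12 weeks. At 34 weeks the ratio was 0.0571 to 0.0826 in KO and 0.0778 to 0.0863 in WT, with overlap at both times. The KO range at 12 weeks was wide, as mouse 5 had the most Fetub (1005 CPM) and the least Ahsg (6962 CPM) of that group. KO mouse 9 had the least Fetub (375 CPM) and the most Ahsg (8986 CPM).

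The locus around the fetuins did not move as a block. Ahsg, Fetub, the histidine-rich glycoprotein gene Hrg and the kininogen genes Kng2 and Kng1 lie within 190814 bases, and none of these 5 genes was called in KO against WT at either time. Hrg was at -0.13 at 12 weeks and -0.81 at 34 weeks, Kng1 at 0.44 and 0.13, and Kng2 at 0.59 and 0.15. Of the fetuin partners, the insulin receptor Insr was not called in KO (-0.56 and -0.55), and the fetuin-A-linked receptor Tlr4 (2.67 and 2.83) and galectin-3 Lgals3 (8.70 and 7.58) were higher at both times, with the macrophage marker sums given above.

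Selenop had the widest range of the members, at 1691 to 35462 CPM over the 18 livers. Selenoprotein P delivers selenium to other tissues, and its receptors include Lrp8 and Lrp2. At 12 weeks it was at 6195, 6809 and 4193 CPM in WT, 2269, 3857 and 3961 CPM in KO and 35462, 13695 and 14022 CPM in KOT. The 3 groups were separate, with KOT highest, and KOT mouse 10 stood far above all other livers. Against WT, KO was at -0.77 (SE 0.46, edgeR adjusted p = 0.204) and KOT at 1.88 on the log2 scale (SE 0.48, edgeR adjusted p = 0.00925). The call in KOT was lost without KOT mouse 10 (1.19, edgeR adjusted p = 0.0719) and without WT mouse 3 (1.70, edgeR adjusted p = 0.0525). KOT against KO was at 2.65 (SE 0.49, edgeR adjusted p = 0.000363), and at 2.01 without KOT mouse 10.

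At 34 weeks Selenop was at 11926, 4448 and 4822 CPM in WT, 1691, 1863 and 2301 CPM in KO and 2283, 4314 and 5423 CPM in KOT. All KO livers were below all WT livers, and KOT mouse 9 lay within the KO range. The log2 fold change in KO against WT was -1.86 (SE 0.48), a 3.62-fold lower level (edgeR adjusted p = 0.00409, log2 change -1.25 without WT mouse 1). KOT against KO was at 1.04 (SE 0.47, edgeR adjusted p = 0.0858) and was called only without WT mouse 1 (1.04, 0.0494) or without KOT mouse 9 (1.32, 0.0447).

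Rbp4 was low in every KO liver. It was at 3193, 4241 and 3088 CPM in WT, 1967, 2106 and 2050 CPM in KO and 4514, 4683 and 5585 CPM in KOT at 12 weeks, and at 4380, 2749 and 2754 CPM in WT, 831, 939 and 1480 CPM in KO and 2271, 3542 and 2891 CPM in KOT at 34 weeks. The KO livers were below all others at both times. KO against WT was -0.78 at 12 weeks (SE 0.29, edgeR adjusted p = 0.0394), under the fold threshold, and -1.60 at 34 weeks (SE 0.29, edgeR adjusted p = 0.000261). KOT against KO was 1.27 at 12 weeks (SE 0.29, edgeR adjusted p = 0.0017) and 1.42 at 34 weeks (SE 0.29, edgeR adjusted p = 0.000876). These calls were lost with total counts (0.39 and 0.89), limma on TPM (0.12 and 0.89) and scaling to hepatocyte markers (0.47 and 0.30), and KO against WT at 34 weeks was at -0.96 with total counts and -0.92 with limma on TPM, under the fold threshold.

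Read per 1000 hepatocyte-marker reads, neither carrier was lower in KO at 12 weeks. Rbp4 was at 36.9 to 46.7 in WT and 35.0 to 46.8 in KO, and Selenop at 50.1 to 85.5 in WT and 53.9 to 81.5 in KO. At 34 weeks Rbp4 was at 38.8 to 51.6 in WT and 29.6 to 39.0 in KO, and Selenop at 66.8 to 141 in WT and 45.9 to 77.5 in KO, again with overlap. Scaled to these markers, the calls of Rbp4 (-0.37, edgeR adjusted p = 0.278) and Selenop (-0.53, edgeR adjusted p = 0.342) in KO against WT at 34 weeks were lost. Inhbe at 34 weeks was at 0.738 to 1.54 in WT and 0.232 to 0.427 in KO per 1000 marker reads, with no overlap, and its call in KO against WT was kept on that scale.

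Selenop did not move alone among the selenium genes. Of 14 genes for selenium transport and selenoenzymes, Selenop included, 7 were called higher in KOT against WT at 12 weeks and 0 lower. Among all genes, 13.6% were called higher and 12% lower in that comparison. The median log2 fold change of the 14 was 1.24, beside 0.06 over all genes, and 0 were called at 34 weeks. Glutathione peroxidases Gpx1 (1.46) and Gpx4 (2.21) were among the 7. In KO against WT 2 of the 14 were lower and 1 higher at 12 weeks and 7 lower and 1 higher at 34 weeks. The shares of all genes were 9.06% lower and 20.2% higher at 12 weeks, and 15.7% and 20.5% at 34 weeks. Gpx1 fell at both times (-1.24 and -2.19), as did the selenophosphate synthetase Sephs2 (-1.11 and -1.91) and the selenocysteine synthase Sepsecs (-1.36 and -1.88) of the 7 synthesis genes. The receptor Lrp8, the gene called higher, had no reads in WT at 12 weeks and was at 0.852 to 0.971 CPM in KO, and Lrp2 fell at both times (-5.08 and -1.82).

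Most of the retinol genes reported here were lower in KO, as Rbp4 was. Of 9 tested, Rbp4 included, 5 were called lower at 12 weeks and 7 at 34 weeks, beside 9.06% and 15.7% of all genes. The median log2 fold changes of the 9 were -1.02 and -1.97, beside 0.02 and -0.03 over all genes. The 8 hepatocyte markers had medians of -0.98 and -1.23, with 3 and 6 of them called lower. The part of this in the retinol genes was not tested. Transthyretin (Ttr), the partner of RBP4 in blood, was at -1.02 and -1.97, and the retinoic acid hydroxylases Cyp26a1 (-5.84 and -5.01) and Cyp26b1 (-6.03 and -5.93) fell most. The RBP4 receptor of liver, Stra6l, was not called (-0.52 and -0.50), and Stra6 did not reach the read minimum. At 34 weeks 0 of the 9 were called in KOT against WT.

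**Figure D5:**
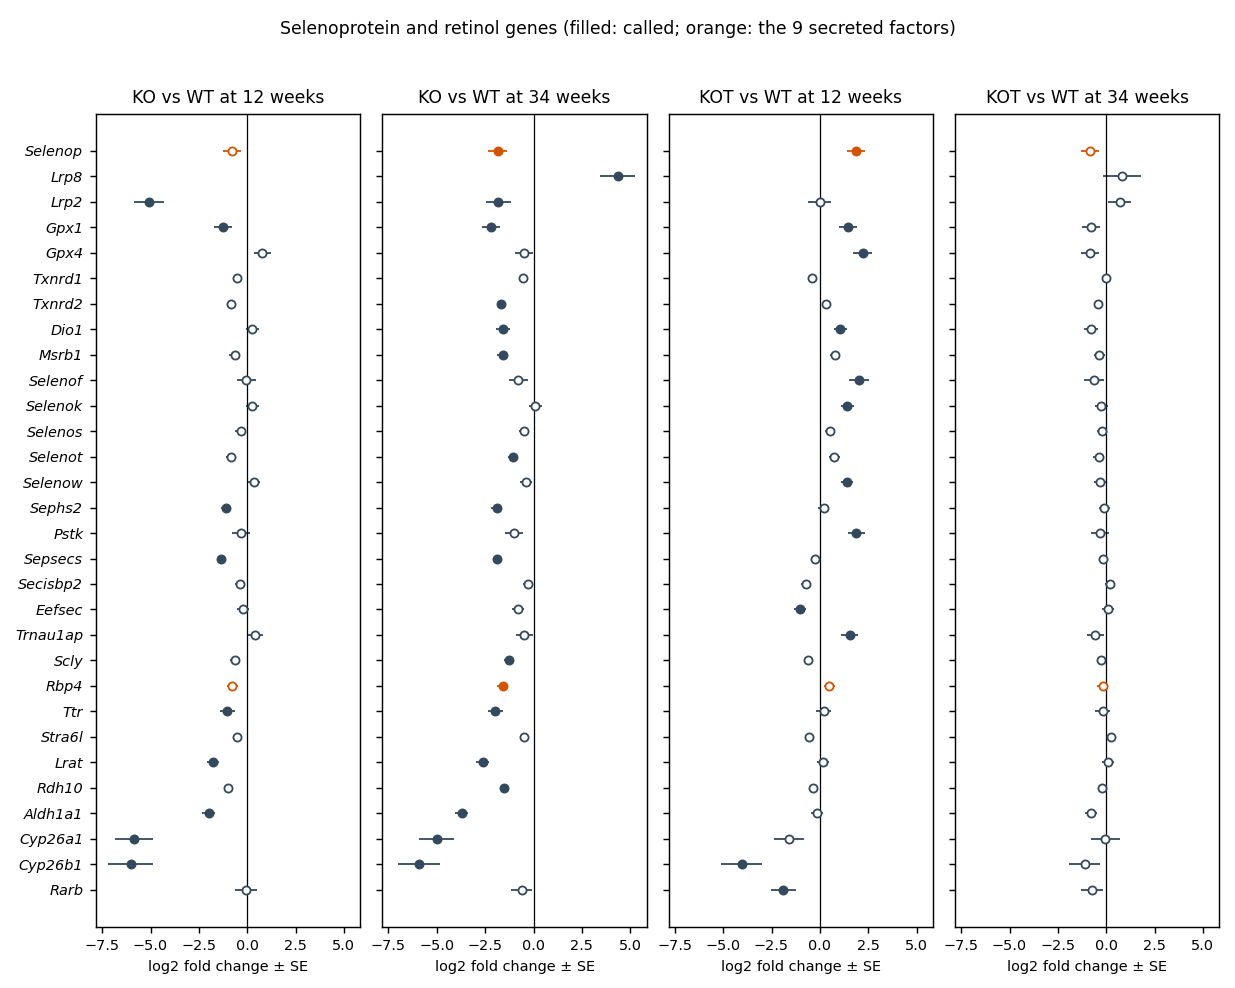
Log2 fold change ± SE of selenoprotein and retinol genes in 4 comparisons (edgeR, 3 mice a group, filled points called, Selenop and Rbp4 in orange). A gene with no reads in any mouse of a group has no point. Selenop lies left of 0 in KO and right of 0 in KOT at 12 weeks, and no gene is called in KOT against WT at 34 weeks.

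Treated livers differed from WT in fewer members at the later time. At 12 weeks 3 of 9 were called in KOT against WT (Fst and Selenop higher, Inhba lower), beside 25.5% of all genes (13.6% higher and 12% lower). At 34 weeks 0 of 9 were called by edgeR, DESeq2 or limma, beside 0.22% of all genes. An unadjusted edgeR p under 0.05 was reached by 0 of 9, beside 837 of the 14533 genes tested. The change between the times was itself called for these 3 members (3 of 9, beside 18.4% of all genes, 8.58% higher and 9.83% lower), at -3.32 for Fst (SE 0.55, edgeR adjusted p = 0.0166), -2.70 for Selenop (SE 0.66, edgeR adjusted p = 0.0246) and 1.67 for Inhba (SE 0.51, edgeR adjusted p = 0.0366). These 3 calls were lost in a fit of the 4 groups alone (edgeR adjusted p = 0.0549, 0.0581 and 0.0568) and when WT mouse 3 of 12 weeks or KOT mouse 9 of 34 weeks was left out, and the direction stayed. Selenop was also lost when WT mouse 1 (-2.76) or KOT mouse 10 (-2.02) was dropped at 12 weeks, or WT mouse 1 (-2.09) at 34 weeks, and Inhba without any of these (1.36 to 1.55), KOT mouse 11 of 12 weeks (1.58) or KOT mouse 11 of 34 weeks (1.61).

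Against KO, 4 of 9 members were called in KOT at each time. The background was 41.5% of all genes at 12 weeks (16.2% higher and 25.3% lower) and 31.5% at 34 weeks (12.8% higher and 18.6% lower). Rbp4 was higher and Gdf15 lower at both times, Selenop higher and Fetub lower at 12 weeks only, and Inhbe higher and Fst lower at 34 weeks only, and whether these effects differ between the times was not tested. All 3 comparisons within a time share their groups, so they are not independent of each other.

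Between 12 and 34 weeks no member was called in WT or KO, while the members' median absolute log2 change in WT was 1.04, beside 0.216 over all genes. In WT 0 of 9 were called (0.323% of all genes). An unadjusted edgeR p under 0.05 was reached by 4 of 9, beside 1133 of the 14533 genes tested, namely Fst (1.49), Gdf15 (1.32), Inhbe (1.22) and Inhba (-1.04). In KO 0 of 9 were called (0.495% of all genes). Only Rbp4 (-0.91) had an unadjusted edgeR p under 0.05 there, beside 2265 of the 14533 genes. DESeq2 and limma likewise called 0 members in both, and in the change of KO against WT between the times. In KOT Fst (-1.83, SE 0.39, edgeR adjusted p = 0.00216, but -0.56 and not called with limma on TPM) and Selenop (-2.39, SE 0.49, edgeR adjusted p = 0.00187, -1.76 without KOT mouse 10 of 12 weeks) fell, 2 of 9 beside 32% of all genes (17.5% higher and 14.5% lower).

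Ordered by mean CPM over the 6 groups, few neighbours were separate. For Rbp4, KOT at 12 weeks was above WT at 12 weeks, KOT at 34 weeks above KO at 12 weeks, and KO at 12 weeks above KO at 34 weeks, with no overlap of mice. For Selenop only the top group, KOT at 12 weeks, was clear of the next. Gdf15 had its break between KO at 34 weeks and WT at 34 weeks, Inhbe between WT and KOT at 34 weeks, Inhba below WT at 12 weeks and Fst above WT at 12 weeks. For Fgf21, Fetub and Ahsg all neighbours in the order overlapped.

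Genes whose log2 CPM followed each member most closely over the 18 livers were sought among 12158 genes. For Selenop these were Grpel1, Guk1 and Rnf13 (r = 0.99 each), and for Rbp4 they were Serpinc1, the antithrombin gene, with Hagh and Ddt (r = 0.99 each). Gdf15 went with Slc22a26 (r = 0.91), Pianp and Pla2g12a (r = 0.89 each), and Inhbe with Sp5 (r = 0.90), Pyroxd2 (r = 0.89) and Myorg (r = 0.88). For Fst the closest were Exo5 (r = 0.90), Pla2g4a and Zfp764 (r = 0.88 or above), for Inhba Onecut1 (r = 0.87), Zfp598 (r = 0.82) and Ahcyl2 (r = 0.81), for Fetub Zdhhc12 (r = 0.94), Rp9 (r = 0.92) and Dap (r = 0.89), and for Ahsg the transferrin gene Trf (r = 0.87), Snrpf and Srsf9 (r = 0.86 each). Fgf21 had the weakest matches, Tmem82, Znhit2 and Alg1 (r = 0.81 each). Among the members themselves, Selenop and Rbp4 (r = 0.85) and Fetub and Ahsg (r = 0.75) were the most alike. These values describe 18 livers that share groups and scaling, and the genes chosen changed with rank correlation or TPM.

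Of 20 hepatokine genes outside the 9 members, 2 were called higher and 3 lower at 12 weeks and 2 higher and 6 lower at 34 weeks, beside 29.3% and 36.3% of all genes called in either direction. The largest called changes were in fibrinogen-like protein Fgl1 (3.19) and Angptl6 (-2.77) at 12 weeks and in Igfbp1 (4.298) and Angptl6 (-3.63) at 34 weeks. In KOT against WT at 34 weeks 0 of the 20 were called.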

How the data were processed

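Poly(A) RNA from the livers was sequenced as paired reads. Per the study's methods, the authors aligned reads to Ensembl cDNA of GRCm39 with Salmon, took them to genes with tximport and compared groups with DESeq2 (version 1.40.1 in R 4.3.0 per the submitters' processing notes). The deposited estimated counts, TPM and effective transcript lengths (bases) were used here, mapped to all 18 mice by column name, with 0 columns left unmapped. A deposited table of the authors' own DESeq2 comparisons (fold changes and p-values) was not used. Each mouse is a separate animal.

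Estimated counts were rounded (19.4% of the deposited values were not whole). Genes with more than 100 reads summed were fitted with edgeR 4.0.16 (R 4.3.3) using TMM factors (0.587 to 1.69) and the quasi-likelihood test over the 6 groups, with p-values adjusted by Benjamini-Hochberg over all 14533 genes. The SE is the log2 fold change divided by the square root of F. With 3 mice a group an exact permutation test cannot go below p = 0.1. DESeq2 1.42.0, limma 3.58.1 on log2(TPM + 0.5), other scalings, filters and thresholds, and leaving out each mouse were the alternatives. The steps were tested on simulated data. No mouse pair shared over 3.81% of its counts, so no library was a duplicate.

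All 9 members were to be named in every comparison. All are given by their levels in every group, and fold changes are printed for all 9 in KO against WT and elsewhere for those with an unadjusted p under 0.05. From each gene list the genes that bind, cleave or carry a member's protein and the 2 genes with the largest called change in KO at each time were to be named, and further examples were chosen after their values were seen. The 3 genes most like each member by Pearson's r (mean of at least 1 CPM, prior count 2) are also given. The members and lists were chosen with earlier results of these data known. A gene of the retinol list is not reported here, and the counts and medians of that list leave it out. Mouse numbers recur between the times but belong to different animals. Start regions come from GENCODE M39 on GRCm39.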

Additional observations from a re-analysis of the deposited data

Results flagged for a closer look

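The KOT against WT difference itself changed between 12 and 34 weeks for 3 members, by edgeR's interaction test. It changed by -3.32 on the log2 scale for Fst (SE 0.55, edgeR adjusted p = 0.0166), by -2.70 for Selenop (SE 0.66, edgeR adjusted p = 0.0246) and by 1.67 for Inhba (SE 0.51, edgeR adjusted p = 0.0366). In each case all 3 KOT livers at 12 weeks lay outside the WT range of that time and the ranges overlapped at 34 weeks. The TMM factors of the KOT livers at 12 weeks were 0.587 to 0.759, and those of the WT livers 0.806 to 1.07 over both times, and the part of this in the results was not tested. Time after injection and study code cannot be told apart.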

How the results depend on the processing

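Of 17 calls of members within a time, 8 were kept under every alternative: Gdf15 and Fst in KO against WT at 12 weeks, Inhbe at 34 weeks, Fst and Inhba in KOT against WT at 12 weeks, Gdf15 and Selenop in KOT against KO at 12 weeks and Fst at 34 weeks. The 46 fold changes were recomputed 1341 times. With another setting 448 kept direction and side of the threshold, 31 lost the call, 26 gained one and 8 changed sign, and with 1 mouse left out the counts were 800, 21, 5 and 2. No called fold change (0) changed sign.

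Scaling mattered most. Total counts moved the median of all genes by 0.47 (12 weeks) and 0.63 (34 weeks) in KO against WT, and scaling to the 8 hepatocyte markers, an alternative chosen after seeing the data, by 0.76 and 1.30. In KO against WT at 34 weeks 6 members were called with total counts, 6 with limma on TPM and 6 with the hepatocyte markers, and in KOT between the times 6 with total counts and 6 with limma on TPM. The change of KOT against WT between the times gave 0 calls in the fit of the groups compared, 0 with the hepatocyte markers and 0 at an adjusted p under 0.01. Apart from the scalings' own shift, the cause was not tested.

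Values that changed sign were not calls in the report. Inhba in KO against WT at 34 weeks was at 0.032 with upper-quartile factors, 0.46 with total counts, 0.23 with limma on TPM and 1.06 with the hepatocyte markers, and from -0.37 to 0.12 with 1 mouse left out. With the hepatocyte markers Inhbe in KO against WT at 12 weeks was at 0.066, Fgf21 at 34 weeks at 0.037 and Selenop in KOT against KO at 34 weeks at -0.092. Rbp4 in KOT between the times was at 0.23 with limma on TPM.

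With 1 mouse left out, called members numbered 3 to 4 in KO against WT at each time, 2 to 3 in KOT against WT at 12 weeks, 3 to 4 and 3 to 5 in KOT against KO, 2 to 3 in KOT between the times and 0 to 3 for the change of KOT against WT.

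Mouse numbers recur between the times on different animals, and same-numbered livers correlated in their deviations at -0.25 to 0.46, so the numbers do not pair them. With the number as a replicate block, KOT between the times gave 0 calls (Fst -1.71, edgeR adjusted p = 0.0831, and Selenop -1.48, edgeR adjusted p = 0.0566) and WT 0. Of the 3 genes most like a member, 0 to 2 were found again by rank correlation or TPM. Fgf21, Inhba and Fst rest on the fewest reads (6, 60 and 53 in the lowest liver), which limits their precision.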
